A study of Mus musculus with 441 samples.

Results

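Among regulatory T cells (Tregs) taken from mouse pancreatic islets with the Ins tetramer, those with Il10 transcripts were set against those without. The cells were chosen by the authors' annotation as Tregs of the Ins sort, and then selected on their own Il10 value: 1 TPM or more made an Il10-detected cell. Of the 441 cells of the data set, 257 came from the Ins sort and 184 from the HIP sort, and 115 cells of the Ins sort were annotated as Tregs. Of these 115, 52 were Il10-detected and 63 were other Tregs. The 2 lowest Il10-detected cells held 9.74 and 9.85 TPM, and all 63 other cells were listed at 0, so no cell lay near the threshold. Because Il10 itself made the split, its difference between the sides is not a result, and all other genes were compared as descriptions without a test.

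Tregs are CD4 T cells that restrain immune responses, and the transcription factor Foxp3 maintains their identity. Interleukin 10, encoded by Il10, is a secreted cytokine that acts through a receptor of the subunits Il10ra and Il10rb, signals mainly through Stat3, and lowers antigen presentation and inflammatory cytokine output in other cells. Only a fraction of Tregs in a tissue make it at a given time, commonly those with an effector phenotype, and the factors Maf, Prdm1 (Blimp-1), Batf and Irf4 are known to take part in its transcription.

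The islets were isolated from collagenase-digested pancreas, and CD4 T cells were sorted one by one by tetramer, a fluorescent probe built of several peptide-MHC class II complexes that binds T cells whose receptor recognises them. The labels give the 2 sorts as HIP and Ins without spelling them out, and call the cells beta-cell-specific. The annotation nevertheless placed 21 cells of the Ins sort in a B cell class. Full-length SMART-Seq2 libraries were made from each cell. Both sides of the comparison come from the same sort, and the labels give no strain, age, genotype, treatment or animal for either. The sort is therefore 1 sample: cells are not replicates, no p-value was computed, and shares carry exact 95% intervals (Clopper-Pearson) that cover counting error only. The numbers in the cell names fall into 3 blocks of 96 within the Ins sort, which the labels do not describe, and differences by block are given for the genes the results turn on.

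The Treg label was checked against its markers over all 115 cells. Foxp3 was detected in 94 of 115 Tregs (81.7%, 73.5 to 88.3%), against 8 of 61 T follicular helper cells of the same sort (13.1%, 5.84 to 24.2%). Tnfrsf18 (GITR) was detected in 90.4%, Ctla4 in 78.3%, Ikzf2 (Helios) in 59.1% and Il2ra (CD25) in 34.8% of the Tregs, against 47.5%, 32.8%, 36.1% and 4.92% of those helper cells. The T cell receptor subunit Cd3e was detected in 99.1% of the Tregs. The classes were annotated on the same cells, so these shares describe the label and are no independent evidence for it. Foxp3 overlaps the neighbouring gene Ccdc22, and reads from overlapping genes may have been split between them.

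Il10 lies on chromosome 1 at 131019845 to 131024970 (mm10), and no other annotated gene overlaps it. Il10 was detected in 45.2% of the 115 Tregs (35.9 to 54.8%). Within the 52 Il10-detected cells its level ran up to 5384 TPM with a median of 548.1 TPM, and 46 cells held 100 TPM or more. Most detected cells thus held a high level, with 16 of them at 1000 TPM or more and 6 under 100 TPM. By block, Il10 was detected in 15 of 31 cells (48.4%), 22 of 40 (55.0%) and 15 of 44 (34.1%), and these intervals overlapped.

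Outside the Tregs, Il10 was found in the cells annotated as activated or dividing and was rare in the helper cells. It was detected in 10 of 35 dividing cells (28.6%) and 5 of 25 activated cells (20.0%) of the Ins sort. Among the cells of that sort annotated as B cells, Il10 was detected in 1 of 21 (4.76%, 0.12 to 23.8%). In the HIP sort it was detected in 21 of 61 activated cells (34.4%), 2 of 3 Tregs and 0 of 9 dividing cells. It was detected in 2 of 61 helper cells of the Ins sort (3.28%) and in 0 of 111 of the HIP sort, where the limit set by 3 cells is 2.70%.

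**Figure D1:**
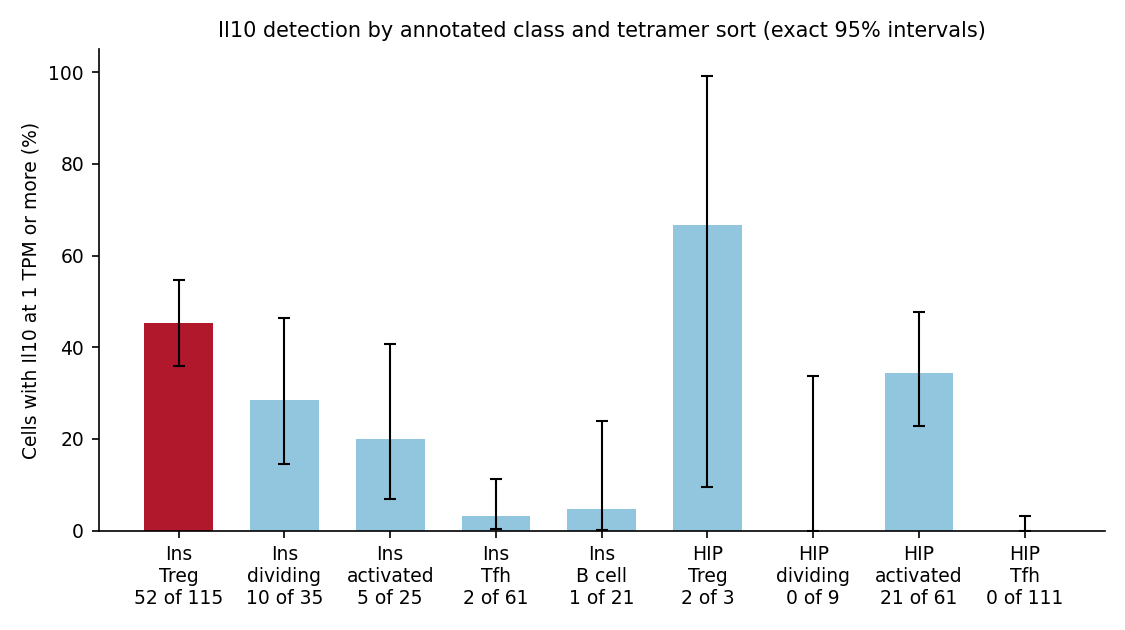
Share of cells with Il10 at 1 TPM or more (percent) in each annotated class of the Ins and HIP sorts, with exact 95% intervals and the cell counts under each bar. The Ins Tregs (red) stand at 45.2%, and the helper cells at 3.28% in the Ins sort and 0 of 111 in the HIP sort.

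The Il10-detected Tregs also had more genes detected per cell, which touches every comparison that follows. The number of genes was 1514 at the lowest, 2138.5 at the median and 3399 at the highest in Il10-detected Tregs, against 694, 1936 and 3050 in other Tregs, a difference of medians of 202.5 genes. The sides overlapped over most of their range, and the medians were higher in the Il10-detected cells of each block: 2237 against 2181, 2279.5 against 1981.5, and 1893 against 1755. Ordered by gene number and cut into 3 bins, the share of Il10-detected cells was 26.3% in the bin with fewest genes (10 of 38), 47.4% in the middle bin (18 of 38) and 61.5% in the bin with most (24 of 39). Gapdh, which nearly every cell uses, was listed at 0 in 1 Il10-detected cell and in 9 other cells. TPM keeps no sequencing depth, so a cell in which Il10 was not captured cannot be told apart from a cell that did not transcribe it. Most differences are therefore also given as the average within the 3 bins of gene number, called within bins.

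**Figure D2:**
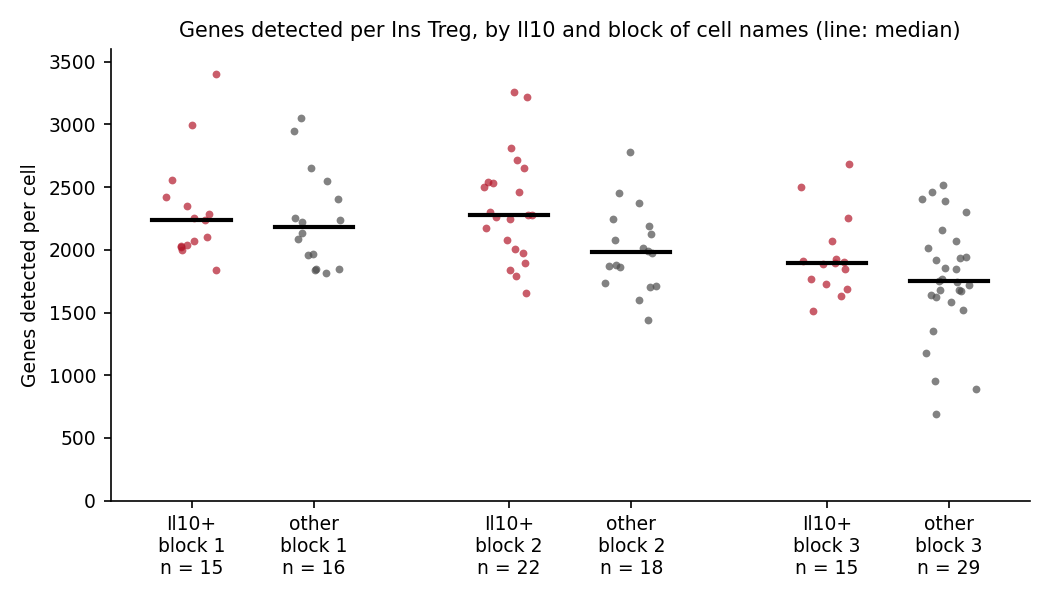
Number of genes detected in each Ins Treg (points), by block of cell names, Il10-detected cells in red left of the other cells in grey, with the median as a line. The Il10-detected medians are 2237, 2279.5 and 1893, and those of the other cells 2181, 1981.5 and 1755.

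Across the 2895 genes found in 25% or more of the cells on either side, 352 (12.2%) met the rule for higher in Il10-detected Tregs and 42 (1.45%) the rule for lower. The rule asked for a difference of mean log2(TPM + 1) of at least 1, Il10-detected minus other, with the same direction in all 3 blocks; such genes are named called below, which implies no test. Higher calls made up 89.3% of all calls, and the median difference over all 2895 genes was 0.29, with 68.6% of genes above 0. Within bins of gene number the median difference was 0.10, and 227 genes were called higher and 82 lower, so that higher calls made up 73.5%. Of the 352 genes first called higher, 220 also differed by at least 1 within the bins, as did 41 of the 42 first called lower, which is 7.6% and 1.42% of all genes tested.

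The size of these differences was close to that between blocks of cells. A difference of at least 1 in either direction was seen for 19.8% of genes between the 2 sides, and for 23.6%, 15.2% and 22.9% of genes when all Tregs of 1 block were set against the Tregs of the other blocks. The largest difference was 4.19 between the sides and 3.90, 2.81 and 3.34 in those block comparisons. The median over genes of the SD of the 3 block differences was 0.85. A call on a single gene is thus a difference of a size that blocks of the same Tregs also show, and the counts of members in the gene lists below are to be read against 12.2% and 1.45%.

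Nkg7, a membrane protein of the cytotoxic granules of lymphocytes, had the largest difference; the gene lies on chromosome 7 at 43437138 to 43438246. Its level was 0 at the lowest, 4458 TPM at the median and 18655 TPM at the highest in Il10-detected Tregs, against 0, 470.7 and 17341 TPM in other Tregs. The gene was detected in 84.6% of Il10-detected Tregs (71.9 to 93.1%) and in 57.1% of other Tregs (44.0 to 69.5%), so the intervals lay apart although the levels of single cells overlapped throughout. Its mean was 5311 ± 4487 TPM and 2365 ± 3908 TPM (SD over cells, n = 52 and 63), a ratio of 2.25. The log2 difference of 4.19 is larger than this ratio because it follows the share of cells at 0. It was 3.14, 6.42 and 2.68 by block and 3.80 within bins of gene number. Read the other way, Il10 was detected in 55.0% of the Tregs with Nkg7 (43.5 to 66.2%) and in 22.9% of those without it (10.4 to 40.1%).

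Twsg1 and Emp3 followed. Twsg1, a secreted protein that binds bone morphogenetic proteins (chromosome 17, 65923065 to 65951187), was 0 at the lowest, 157.2 TPM at the median and 1216 TPM at the highest in Il10-detected Tregs, against 0, 0 and 673.8 TPM in other Tregs. Twsg1 transcripts were found in 76.9% of Il10-detected Tregs (63.2 to 87.5%) and 30.2% of other Tregs (19.2 to 43.0%), the widest gap in shares among the 12 leading genes, with a log2 difference of 3.68 that was 3.62 within bins. Most other Tregs thus held none, while among the cells with the gene the median was 222.7 TPM in Il10-detected and 285.0 TPM in other Tregs. Emp3, a small membrane protein of the PMP22 family, was detected in 59.6% of Il10-detected Tregs (45.1 to 73.0%) and 23.8% of other Tregs (14.0 to 36.2%), with medians of 271.4 and 0 TPM and a difference of 3.12, or 2.51 within bins.

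The other 9 of the 12 leading genes belong to cell machinery of many kinds. They were Capza2 (a subunit of the actin capping protein), Hadhb (mitochondrial fatty acid oxidation), Sec11a (the signal peptidase that trims secreted proteins), Nedd8 (a ubiquitin-like modifier), Mcm6 (the replicative helicase), Pkp3 (plakophilin, of desmosomes), Sirt2 (a deacetylase), Use1 (a SNARE of traffic to the endoplasmic reticulum) and Ndufb9 (respiratory complex I). Their differences ran from 2.65 for Ndufb9 up to 3.05 for Capza2, and within bins from 1.88 for Capza2 up to 2.73 for Hadhb. The shares of cells were 50.0% in Il10-detected and 19.0% in other Tregs for Hadhb, and 57.7% and 28.6% for Sec11a. In 11 of the 12 leading genes the intervals of the 2 shares lay apart, the exception being Mcm6 (59.6% against 33.3%). The 12 were picked as the largest differences in these same cells, which favours intervals that lie apart. The count was not taken over all genes tested, so it describes the choice only. Hadhb, Sec11a and Sirt2 each overlap an annotated noncoding gene.

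**Figure D3:**
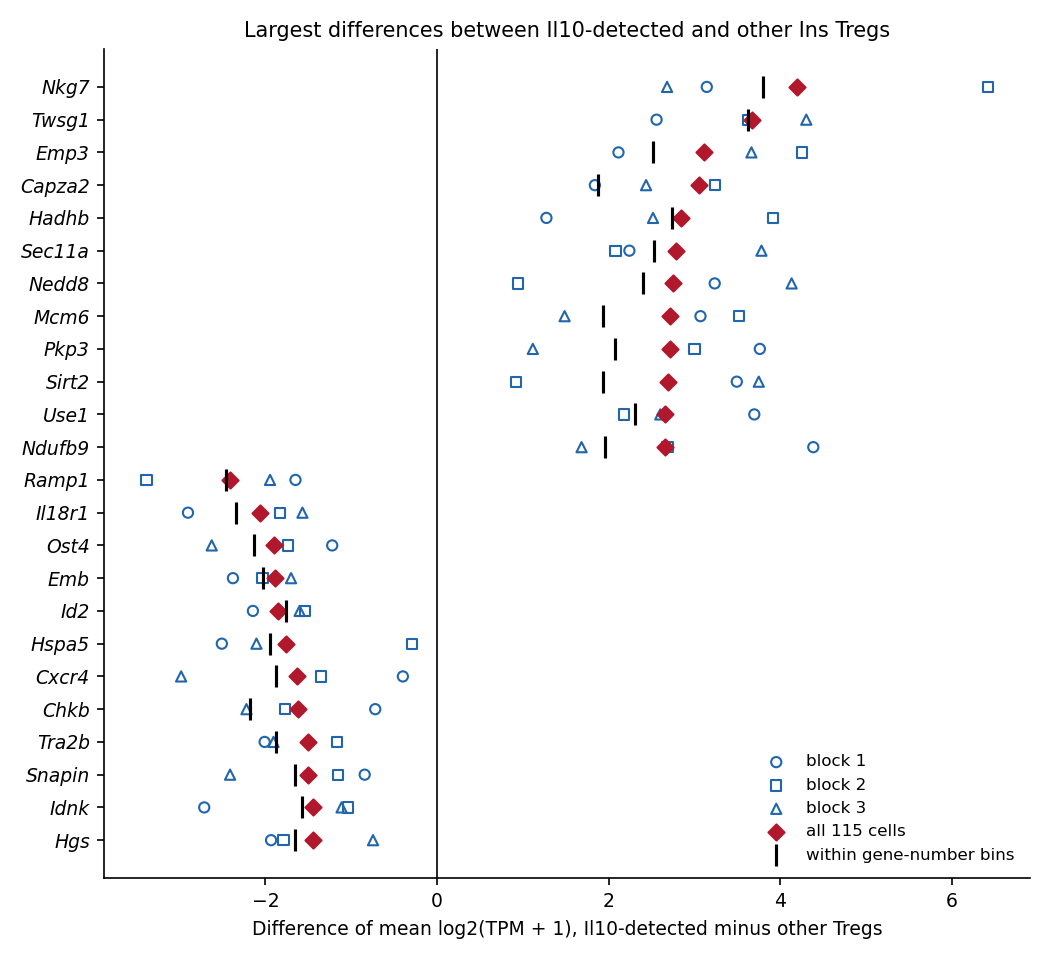
Difference of mean log2(TPM + 1), Il10-detected minus other Ins Tregs, for the 12 leading genes in each direction: all cells (red diamonds), each block (open symbols) and the average within bins of gene number (black ticks). Each gene keeps its direction in all 3 blocks, as the rule required, and Nkg7 spans 2.68 to 6.42 over the blocks.

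Fewer genes were lower in the Il10-detected Tregs, and they included receptors for cytokines, chemokines and neuropeptides. Il18r1, the chain of the interleukin 18 receptor that binds the cytokine (chromosome 1, 40465552 to 40500854), was 0 at the lowest and at the median and 399.0 TPM at the highest in Il10-detected Tregs, against 0, 0 and 1162 TPM in other Tregs. It was detected in 9 of 52 Il10-detected cells (17.3%, 8.23 to 30.3%) and 27 of 63 other cells (42.9%, 30.5 to 56.0%), with a difference of -2.06, or -2.35 within bins. Of the 12 leading lower genes, likewise picked by the size of their difference in these cells, it was the only one whose intervals lay apart. Its partner chain Il18rap, which is needed for signalling, was detected in 3.85% of Il10-detected and 14.3% of other Tregs, too few to be tested.

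Ramp1, which forms the receptor for the neuropeptide CGRP together with a calcitonin receptor-like partner, had the largest negative difference at -2.41, or -2.46 within bins. Its values were 0 at the lowest, 0 at the median and 1290 TPM at the highest in Il10-detected Tregs, against 0, 399.8 and 2525 TPM in other Tregs. Shares were 48.1% (34.0 to 62.4%) and 68.3% (55.3 to 79.4%), intervals that overlapped. Cxcr4, a receptor for the chemokine Cxcl12, was detected in 34.6% and 50.8% with a difference of -1.63 (-1.88 within bins), and Id2, an inhibitor of E protein transcription factors, in 50.0% and 65.1% with -1.85 (-1.76 within bins). Emb (embigin, a membrane partner of monocarboxylate transporters) was detected in 19.2% and 42.9%, with -1.89 (-2.03 within bins). The remaining 7 were Ost4, Hspa5, Chkb, Tra2b, Snapin, Idnk and Hgs, with differences between -1.45 and -1.90, of which Ost4, Hspa5 and Snapin each overlap another protein-coding gene.

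**Figure D4:**
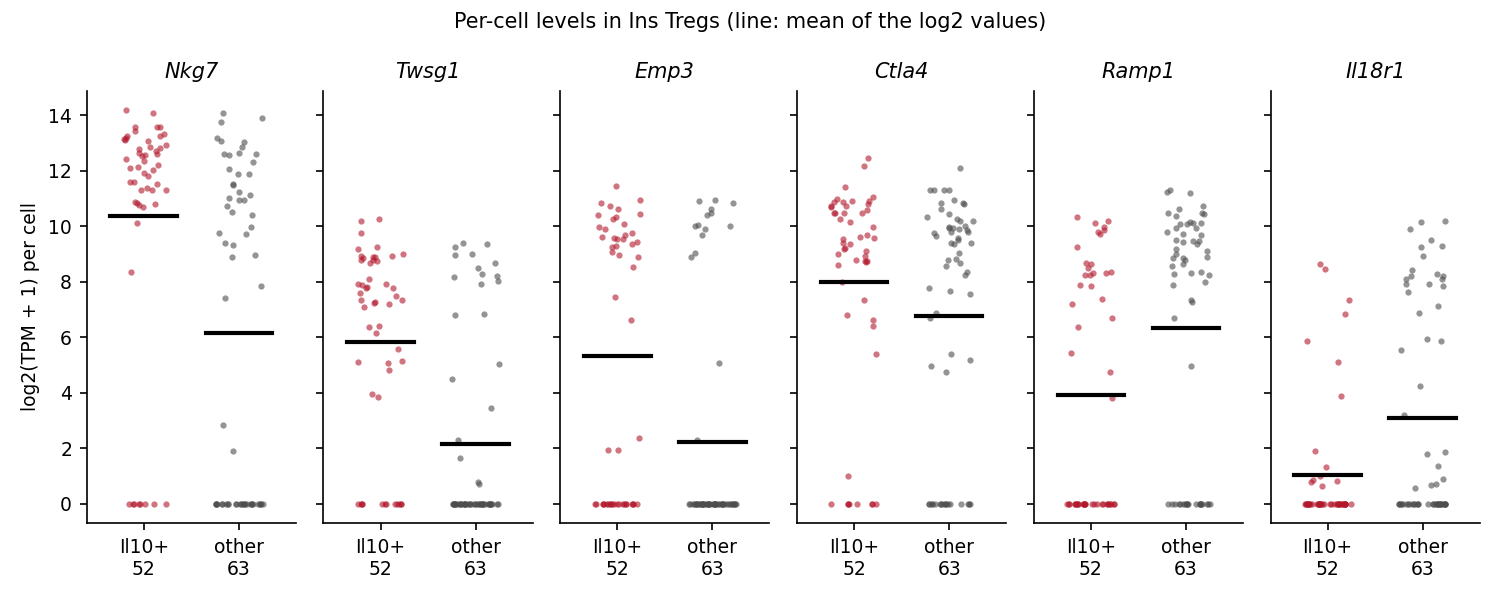
Level of 6 genes in each Ins Treg as log2(TPM + 1), Il10-detected cells in red (52) left of the other cells in grey (63), with the mean of the log2 values as a line. In each panel some cells stand at 0, and detected values can also be low, as for Il18r1 (from 1.47 TPM). For Nkg7, 84.6% of Il10-detected and 57.1% of other Tregs are above the threshold. Among detected cells, the medians are 5679 and 2319 TPM for Nkg7, 317.8 and 703.9 TPM for Ramp1, and 56.8 and 242.7 TPM for Il18r1. For Twsg1, Emp3 and Ctla4 that median is lower in Il10-detected Tregs, although the share of detected cells is higher.

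Genes of the Treg program were mostly a little higher in the Il10-detected cells. Foxp3 was 0 at the lowest, 500.4 TPM at the median and 2018 TPM at the highest in Il10-detected Tregs, against 0, 458.4 and 2032 TPM in other Tregs. Foxp3 was found in 84.6% and 79.4%, with a difference of 0.59 (0.14 within bins) whose sign was not the same in the 3 blocks (1.02, -0.63 and 0.54). By cell, 44 held both genes, 8 held Il10 without Foxp3, 50 held Foxp3 without Il10 and 13 neither. The sides did not separate by Foxp3: Il10 was detected in 46.8% of the Tregs with Foxp3 (36.4 to 57.4%) and in 38.1% of those without (18.1 to 61.6%).

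Of 16 genes of a Treg core list found in 10% or more of the cells on either side, 15 had a positive difference and 1 a negative one, with a median of 0.61 (0.39 within bins), beside a median of 0.17 (0.03 within bins) and 63.2% positive over all 5941 genes at that share. Of its 14 members tested, 3 were called higher and none lower. These were Itgae (CD103, an integrin that binds E-cadherin), with 2.07 (2.27 within bins) and shares of 82.7% and 65.1%; Socs2, a suppressor of cytokine signalling, with 1.85 (1.88 within bins) and 32.7% and 12.7%; and Tnfrsf18, with 1.11 (1.22 within bins). Il2ra differed by 0.91 (42.3% against 28.6%), with a value of -0.07 in the second block, and Ikzf2 by 0.08.

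All 13 members of a suppressor function list at that share had a positive difference, with a median of 0.62 (0.47 within bins), and 2 of the 11 tested were called. The called members were Gzmb (granzyme B), detected in 26.9% of Il10-detected (15.6 to 41.0%) and 11.1% of other Tregs (4.59 to 21.6%), overlapping intervals, with a difference of 1.62 (1.65 within bins), and Fgl2, a secreted fibrinogen-like protein, with 1.00 (0.95 within bins). Ctla4, the inhibitory receptor for CD80 and CD86, averaged 1006 ± 1116 TPM in Il10-detected Tregs and 735.6 ± 876.7 TPM in other Tregs (SD over cells, n = 52 and 63) and differed by 1.23 (0.65 within bins), with -0.13 in the second block, and was not called. The costimulatory receptor Icos differed by 1.26, and was lower in Il10-detected cells of the first block (-0.99). Lag3 and Tigit, both inhibitory receptors, were detected in 98.1% of Il10-detected and 98.4% of other Tregs, and their differences of 0.35 and 0.37 were small. Of other suppressive cytokines, Tgfb1 was detected in 2 and 1 cells, and Ebi3, a subunit of interleukin 35, in none on either side.

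The known regulators of Il10 showed no common direction. Of 17 list members at 10% or more, 10 had a positive and 7 a negative difference, with a median of 0.03 (0.01 within bins), and of 10 tested none was called higher while Stat3 and Id2 were called lower. Maf was detected in 65.4% of Il10-detected Tregs and 54.0% of other Tregs (difference 0.32), and Prdm1 in 36.5% and 38.1% (difference -0.49). Batf had the largest positive difference of the list, 1.88 with 59.6% (45.1 to 73.0%) and 36.5% (24.7 to 49.6%), and was at -0.09 in the first block. Irf4 was detected in 13.5% and 3.17% of cells, too few to be tested, and Tbx21 (T-bet) in 34.6% and 22.2% with a difference of 1.01 that was -0.12 in the second block.

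The receptor for interleukin 10 was itself found more often in the Il10-detected cells. Il10ra, the chain that binds the cytokine, was 0 at the lowest, 0 at the median and 1017 TPM at the highest in Il10-detected Tregs, against 0, 0 and 607.1 TPM in other Tregs. It was detected in 17 of 52 Il10-detected cells (32.7%, 20.3 to 47.1%) and 7 of 63 other cells (11.1%, 4.59 to 21.6%), intervals that overlapped at their ends, with a difference of 1.77 (2.62, 1.88 and 0.76 by block, 1.27 within bins). The shared chain Il10rb differed by 0.77 and was not called. Downstream of the receptor, Stat3 was detected in 46.2% of Il10-detected and 57.1% of other Tregs (difference -1.12, or -1.30 within bins) and was called lower. The receptor chain and this factor thus differed in opposite directions, and the feedback inhibitor Socs3 differed by 0.23.

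Genes of effector Tregs in tissues had a median of 0.73 over 24 members (0.38 within bins), with 18 positive and 6 negative. Of 22 tested, Cxcr3, S100a4 and Lgals3 were called higher and Id2 lower. Within bins S100a4 differed by 0.56, against 1.33 over all cells, which ends its call, and Lgals3 by 1.19. Anxa2, an annexin, differed by 2.39 with 61.5% and 38.1% of cells and was not called, being at -0.06 in the third block. Genes of naive and central T cells were mostly undetected: 6 of 18 reached 10%, and Cd27, a costimulatory receptor (80.8% and 71.4%, difference 1.27, or 0.92 within bins), and S1pr1, the receptor that guides exit from lymphoid tissue (25.0% and 11.1%, difference 1.05, or 0.77 within bins), were called higher of 3 tested, and both were under 1 within bins. Of 4 T follicular helper genes tested, Slamf6 was called higher (1.12, or 0.85 within bins), and Bcl6, the factor that defines those cells, was detected in 9.62% and 14.3%.

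Markers of the Th1 type, the interferon-gamma branch of CD4 T cells, were split. Of 13 members at 10% or more, 6 were positive and 7 negative, with a median of -0.10, and of 8 tested, 3 were called higher (Nkg7, Cxcr3 and Gzmb) and 2 lower, among them Il18r1. Cxcr3, a chemokine receptor that leads T cells to interferon-induced chemokines, was 0 at the lowest, 811.4 TPM at the median and 2968 TPM at the highest in Il10-detected Tregs, against 0, 8.13 and 3226 TPM in other Tregs. Cxcr3 was found in 73.1% (59.0 to 84.4%) and 52.4% (39.4 to 65.1%), with a difference of 2.19, or 1.84 within bins. Ifng, the cytokine that names this branch, was detected in 2 Il10-detected and 1 other Treg. Of 3 Th2 and Th17 markers at 10% or more all had a negative difference, none of them called.

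Some genes that respond to receptor signalling were detected on both sides, and others were nearly absent. Egr2 was detected in 3.85% of Il10-detected and 4.76% of other Tregs, and Nr4a2 in none. Whether the cells had recently signalled was not tested. Egr1, an early response factor, was the 1 called member of the 7 tested in an antigen receptor list (median 0.35 over 10 members at 10% or more). Egr1 was found in 40.4% of Il10-detected Tregs (27.0 to 54.9%) and 12.7% of other Tregs (5.65 to 23.5%), with a difference of 2.32, or 2.06 within bins, and intervals apart. Nr4a1, also induced by receptor signalling, was detected in 30.8% and 19.0% and was -0.03 in the third block. In an AP-1 and dissociation stress list, 12 of 14 members at 10% or more had a positive difference and 2 a negative one. The positive share was 85.7%, beside 63.2% of all genes at that share. The list's median was 0.50, or 0.31 within bins, beside 0.17 and 0.03 over all genes. None of its 11 members tested was called in either direction. Ppp1r15a (17.3% against 3.17%, difference 1.12) was positive in all 3 blocks but detected in too few cells to be tested. Of the interferon response list, Gbp3, a guanylate-binding protein, was called higher (32.7% against 9.52%, intervals apart, difference 1.85 both over all cells and within bins), and the median over its 14 members was 0.23, or -0.12 within bins.

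Metabolic genes had positive medians that were smaller within bins of gene number. Of 12 glycolysis genes tested, 4 were called higher (Gapdh, Pgam1, Pkm and Ldha), of which Pgam1 and Pkm were under 1 within bins (0.94 and 0.78), and the median over 14 members was 0.65, or 0.22 within bins. Of 17 oxidative phosphorylation genes tested, 2 were called higher (Atp5o and Uqcrc1), a share close to that over all genes, with a median of 0.62 over 18 members, or 0.05 within bins. Of 13 T cell identity genes, 4 were called higher (Cd247, Cd4, Cd2 and Zap70), of which Cd2 was at 0.54 within bins. The list's median was 0.55, or 0.38 within bins, and Cd4 itself was detected in 90.4% and 76.2%. Genes of protein folding and secretion in the endoplasmic reticulum had a median of 0.04, or -0.27 within bins, with Canx (calnexin) called higher and the chaperone Hspa5 (BiP) lower. Dividing cells were few: Mki67 was detected in 5 of 52 Il10-detected and 1 of 63 other Tregs, and Top2a in 7 and 2.

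Transcripts of other cell types were found on both sides. Any of 6 islet endocrine markers was detected in 12 Il10-detected Tregs (23.1%) and 11 other Tregs (17.5%), and any of 15 acinar markers in 8 (15.4%) and 6 (9.52%). The summed level of the islet markers reached 6880 TPM in Il10-detected and 7161 TPM in other Tregs, that of the acinar markers 63867 TPM and 21899 TPM, and both medians were 0. Of the myeloid list Lyz2, C1qb, Fcer1g and Tyrobp, and of the B cell list Cd79a and Ms4a1, were detected on neither side. Any of 8 myeloid markers was nevertheless detected in 80.8% and 84.1%, of which Cst3 alone was detected in 78.8% and 84.1%. Any of 9 B and plasma cell markers was detected in 42.3% and 47.6%. Of these only Xbp1 (25.0% and 25.4%) and Cd22 (17.3% and 20.6%) reached 10% of either side, Cd22 with at most 4.65 TPM in a cell. The summed myeloid level was 1202 TPM at the median in Il10-detected and 1660 TPM in other Tregs, and that of the B and plasma cell list 0.72 and 0.66 TPM. Any of 7 markers of CD8 T and NK cells was detected in 16 cells of each side (30.8% and 25.4%), with Klrb1c, Klrk1 and Eomes detected on neither. With the 16 cells of each side that held islet or acinar transcripts left out, 386 genes were called higher and 90 lower.

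Within the Il10-detected Tregs, the leading higher genes showed no common direction with the Il10 level. In the 26 cells with the higher Il10 levels (580.3 TPM or more), 6 of the 12 leading higher genes had a larger mean log2 level than in the 26 cells with the lower levels (515.9 TPM or less). Among the 12 leading lower genes, 4 had a larger mean log2 level in the cells with more Il10. For Nkg7 the share was 76.9% in the cells with more Il10 and 92.3% in those with less. The median number of genes was 2066.5 and 2205.5 in these cells.

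The same split was made in 3 classes that did not choose the genes. In the dividing cells of the Ins sort (10 Il10-detected, 25 other), 215 of the 352 genes called higher were higher (61.1%), beside 51.0% of all genes, and 10 of the 12 leading ones. In the activated cells of the HIP sort (21 and 40) it was 142 of 352 (40.3%), beside 39.2% of all genes, and in those of the Ins sort (5 and 20) 176 of 348 (50.6%), beside 49.6%, with 7 of 12 leading genes in each. For genes called higher, the share with the same direction was thus near that of all genes in both activated classes. For the genes called lower, the shares were 20 of 42 (47.6%, beside 49.0%) in the dividing cells, 28 of 42 (66.7%, beside 60.8%) in the HIP activated cells and 28 of 42 (66.7%, beside 50.4%) in the Ins activated cells. The median number of genes was 3753 in Il10-detected and 3581 in other dividing cells, 1823 and 2138 in HIP activated cells, and 1862 and 1917 in Ins activated cells. Within bins of gene number, the HIP activated cells had 179 of 352 (50.9%, beside 47.9%) of the higher genes in the same direction. Of the lower genes they had 19 of 42 (45.2%, beside 52.1%), a share below that of all genes. The dividing cells had 217 of 352 (61.6%, beside 51.8%) of the higher and 21 of 42 (50.0%, beside 48.2%) of the lower genes. The Ins activated cells had 165 of 348 (47.4%, beside 45.1%) and 30 of 42 (71.4%, beside 54.9%).

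Single genes differed in how they fared across these classes. Nkg7 was higher in the Il10-detected dividing cells (70.0% against 56.0%, difference 1.99) but lower in the Il10-detected HIP activated cells, at 42.9% (21.8 to 66.0%) against 70.0% (53.5 to 83.4%) and a difference of -3.34. Il18r1 was detected in 0 of 21 Il10-detected HIP activated cells and in 13 of 40 others (32.5%, 18.6 to 49.1%), intervals that lay apart, and differed by -0.94 in the dividing cells and 0.47 in the Ins activated cells. Ramp1 was lower in all 3 classes (-0.65, -3.51 and -2.27 in the Ins dividing, Ins activated and HIP activated cells). Ctla4 was higher in all 3 (1.75, 1.70 and 2.86), with shares of 81.0% (58.1 to 94.6%) and 55.0% (38.5 to 70.7%) in the HIP activated cells. Emb and Tra2b were also lower, and Twsg1, Capza2, Pkp3, Batf and Egr1 also higher, in all 3. For Twsg1 the difference in the Ins activated cells was 0.20 over all cells and -0.25 within bins. The remaining leading genes did not keep their Treg direction in all 3, and the share of all genes that did was not counted. Il10ra, called higher in the Tregs, was lower in the Il10-detected cells of all 3 classes. Cxcr3 was lower in both Ins classes (-0.76 in dividing and -1.51 in activated cells), and in the HIP activated cells it differed by -0.31 over all cells and 0.35 within bins. These classes hold 5 to 21 Il10-detected cells each, and whether they differ from the Tregs was not tested.

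**Figure D5:**
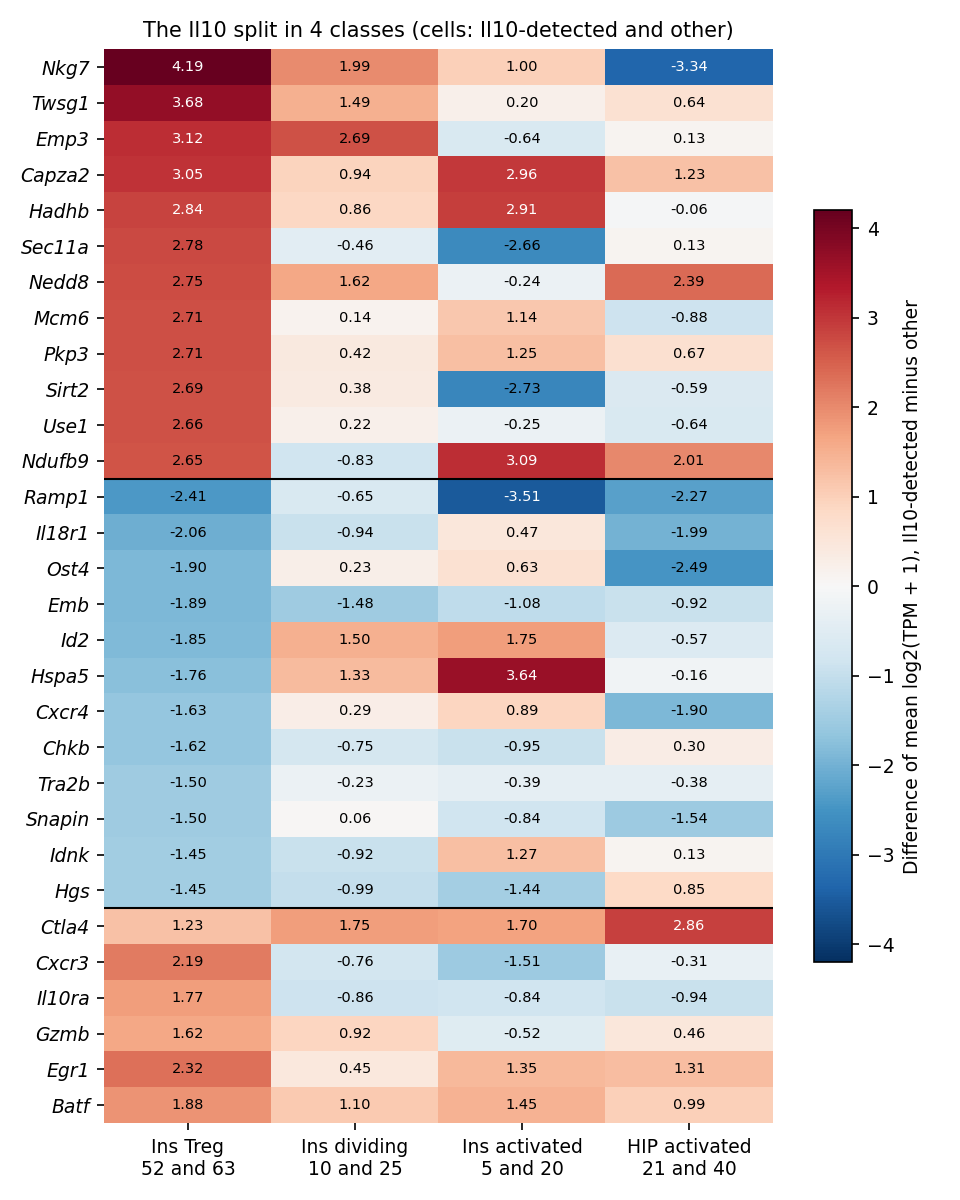
Difference of mean log2(TPM + 1), Il10-detected minus other cells, in 4 classes (columns, with the cell counts of each side) for the leading genes and 6 further genes (rows); red is higher and blue lower in Il10-detected cells. Ramp1, Emb and Tra2b are negative in every column, and Twsg1, Capza2, Pkp3, Ctla4, Egr1 and Batf are positive in every column. Nkg7 is 4.19 in Ins Tregs and -3.34 in HIP activated cells.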

How the data were processed

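Single-cell SMART-Seq2 libraries were read from the authors' deposited table of natural log values (13561 genes, 441 cells). Per the submitters' processing notes the tools were TopHat, Bowtie and RSEM 1.2.8 and the build mm10, with no role stated. The sources used here do not state how cells and genes were filtered or classes cut. After exponentiation and subtraction of 1, each cell summed to 100000, so the values were taken as ln(TPM/10 + 1) and converted to TPM, whereas the plan had assumed linear TPM. The deposited annotation gave each cell's class and its number of genes, other values that matched the labels in all 441 cells.

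A gene was called detected at 1 TPM. Differences are of mean log2(TPM + 1), pseudocount 1, which understates differences of low genes, and are largely set by the share of cells at 0. Genes detected in 25% of either side were compared. Named genes were the 12 largest called differences in each direction that also reached 1 within 3 bins of gene number (receptor segments, unnamed models, ribosomal and mitochondrial genes left out), a core set, and 3 members of each list. Genes, lists and cells were chosen with earlier results of these data known. Older symbols stood in for 3 listed genes (Folr4, Igj and 4632428N05Rik). SMART-Seq2 keeps no strand, so reads of overlapping genes cannot be told apart. Gene positions are from RefSeq on GRCm38. Depth is unknown, since TPM keeps none. No doublet caller was run on these singly sorted cells. Alternatives were the pseudocount, the filter, the Il10 threshold, gene number, left-out blocks and cells, and a linear fit on gene number that was added after seeing the data. No pair of Tregs correlated above 0.494, so none was counted as a duplicate. The code was tested on simulated data. Python 3.11.15, numpy 2.4.6, pandas 2.3.3 and SciPy 1.17.1 were used. Some genes are not reported here.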

Additional observations from a re-analysis of the deposited data

How the results depend on the processing

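No leading gene changed direction under any alternative run. Of 360 values over 24 leading genes and 15 alternatives, 331 stayed within the spread and 29 moved, the smallest being 0.39 in size (Idnk, in cells at or above the median number of genes). Much of this was set by the choice of the leading genes. They had to keep their direction in every block and to differ by at least 1 within bins. The bins and the equal weighting of blocks could therefore not reverse them, and leaving out a block hardly could. Changing the detection filter leaves a difference as it is. An Il10 threshold of any value above 0 gave the same 52 and 63 cells. These alternatives are thus little or no check on direction. The counts of called genes moved more. With a pseudocount of 10 TPM, 125 genes were called higher and 8 lower, and the median difference was 0.13; without a detection filter the median was 0.050. Within bins of gene number the calls were 227 and 82 with a median of 0.10, and with a linear fit on gene number, added after seeing the data, 220 and 87 with 0.069, so that higher calls made up 73.5% and 71.7% of all calls. In the cells at or above the median number of genes, where the sides differed by 1 gene at the median, 364 genes were called higher and 198 lower, and the median was 0.070. In cells with Foxp3, 295 were called higher and 85 lower, and without cells holding islet or acinar transcripts 386 and 90. Leaving out the first, the second or the third block gave 589, 507 and 554 higher and 86, 153 and 175 lower calls, since fewer blocks then had to share a direction, with medians of 0.20 to 0.35 and 117 to 220 more genes in the Il10-detected cells. The cause of the other moves was not tested. With 115 cells of 1 sort and unknown depth, a share of cells is fixed to about the width of its interval and no difference has a replicate check.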

Other observations

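The chemokine gene Ccl4 was detected in 7 Il10-detected and 4 other Tregs, with up to 42741 TPM and 4728 TPM in a single cell. The costimulatory receptor Cd226 was detected in 0 of 52 Il10-detected and 4 of 63 other Tregs.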
